A study of Mus musculus with 4 samples.

Results

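The genes described here are 10 genes through which prostaglandin E2 (PGE2) is made, taken up, broken down and sensed. They are Pla2g4a, Ptgs1, Ptgs2, Ptges, Ptges2, Ptges3, Slco2a1, Hpgd, Ptger2 and Ptger4, and they were taken by gene symbol from the array annotation. Of the 10, 9 had a probe set that the annotation gives to a single gene, 1 probe set each, out of 22180 genes so measured. Ptgs1, the constitutive cyclooxygenase, had no such probe set and was not analysed here. Of the 9, 7 reached a log2 level of 6 in at least 1 array, as 5306 genes did in all; Ptges2 and Ptges3 did not.

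The values come from macrophages sorted from C57/BL6 mouse livers 48 h after reperfusion, when blood flow returns to tissue that has been without it. The study used 10 wild-type mice (WT) and 10 that carry the label of a knockout (KO) of mPGES-1, the microsomal prostaglandin E synthase encoded by Ptges. Cells of each genotype were split by the monocyte surface antigen Ly6C into Ly6C-hi and Ly6C-low fractions, giving WT Ly6C-hi, WT Ly6C-low, KO Ly6C-hi and KO Ly6C-low with 1 array each. All 4 groups had gone through ischaemia and reperfusion, and no uninjured liver was analysed here. The labels do not say how many mice contributed RNA to an array or whether the deletion covers all tissues. With 1 array per group, pairwise differences have no replicate behind them, and the p-values below come from a model that sets the 4 arrays against each other.

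PGE2 is made in steps. Cytosolic phospholipase A2, the product of Pla2g4a, frees arachidonic acid from membranes, the cyclooxygenases encoded by Ptgs1 and Ptgs2 turn it into prostaglandin H2, and the synthases encoded by Ptges, Ptges2 and Ptges3 turn that into PGE2. PGE2 outside the cell is carried in by the transporter encoded by Slco2a1 and inactivated by 15-hydroxyprostaglandin dehydrogenase, the product of Hpgd. It acts on macrophages mainly through the receptors EP2 (Ptger2) and EP4 (Ptger4), which raise cyclic AMP, while Ptgs2 and Ptges are known as genes that inflammatory stimuli induce together.

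The 4 stretches of promoter are shown first because their genes, Ptgs2, Ptger2, Hpgd and Slco2a1, were the members with the widest spread over the arrays. Each runs 5′ to 3′ on the gene's strand from 250 bases before to 50 bases after the start annotated by RefSeq on GRCm38.p6, and capitals mark matches to 6 motifs. The windows lie at chr1:150099781-150100080 (plus strand) for Ptgs2, chr14:44987861-44988160 (plus) for Ptger2, chr8:56294302-56294601 (plus) for Hpgd and chr9:103008237-103008536 (plus) for Slco2a1. All 10 genes had a window in that table, and Pla2g4a had 2.
Ptgs2: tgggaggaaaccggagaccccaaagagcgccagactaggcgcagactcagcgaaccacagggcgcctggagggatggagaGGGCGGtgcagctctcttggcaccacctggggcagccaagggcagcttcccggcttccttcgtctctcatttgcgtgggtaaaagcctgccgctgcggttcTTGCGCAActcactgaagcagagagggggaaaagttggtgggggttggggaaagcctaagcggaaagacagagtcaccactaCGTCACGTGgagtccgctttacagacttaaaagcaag
Ptger2: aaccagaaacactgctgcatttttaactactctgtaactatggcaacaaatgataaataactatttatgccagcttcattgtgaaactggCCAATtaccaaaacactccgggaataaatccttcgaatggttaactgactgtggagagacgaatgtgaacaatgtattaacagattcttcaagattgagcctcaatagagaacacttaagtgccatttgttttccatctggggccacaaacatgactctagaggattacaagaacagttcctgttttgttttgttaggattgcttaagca
Hpgd: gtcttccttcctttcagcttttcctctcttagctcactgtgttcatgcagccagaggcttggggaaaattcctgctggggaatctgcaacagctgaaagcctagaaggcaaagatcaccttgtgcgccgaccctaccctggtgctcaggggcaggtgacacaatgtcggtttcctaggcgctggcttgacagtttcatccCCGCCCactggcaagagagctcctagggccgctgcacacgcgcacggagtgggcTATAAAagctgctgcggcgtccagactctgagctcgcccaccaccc
Slco2a1: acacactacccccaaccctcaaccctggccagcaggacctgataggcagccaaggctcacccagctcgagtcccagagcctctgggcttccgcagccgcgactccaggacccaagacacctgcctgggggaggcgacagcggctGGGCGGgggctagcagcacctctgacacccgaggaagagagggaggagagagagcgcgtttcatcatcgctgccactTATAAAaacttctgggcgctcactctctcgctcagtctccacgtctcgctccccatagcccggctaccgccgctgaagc

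The motifs, searched on both strands, were the cyclic AMP response motif TGACG, the E-box CACGTG, the GC box GGGCGG, the TATA motif TATAAA, the CCAAT box CCAAT and the C/EBP palindrome TTGCGCAA. Among 32851 promoter windows of the same length these were present in 20.8%, 7.15%, 35.7%, 13.6%, 37.4% and 0.183%. The palindrome was added to the search after the sequence had been seen. The Ptgs2 window held it at bases 182 to 189, a GC box at bases 81 to 86, and, past the annotated start, a reverse-strand TGACG at bases 264 to 268 overlapping an E-box at bases 267 to 272. Hpgd and Slco2a1 each held a TATA motif, at bases 255 to 260 and 222 to 227, and a GC box each, at bases 201 to 206 (reverse strand) and 145 to 150. Ptger2 held a CCAAT box at bases 91 to 95 and none of the other motifs. The GC content of the windows was 59.3% for Ptgs2, 37.7% for Ptger2, 58.0% for Hpgd and 64.0% for Slco2a1. A match is a stretch of letters and not a measured binding site.

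Array-wide facts bear on every value. The median of the 5306 genes was 6.67 and 6.36 in the Ly6C-hi and Ly6C-low arrays of WT and 6.17 and 6.55 in those labelled KO, so the deposited arrays are not on one centre. Differences are therefore given as deposited and, where it matters, relative to the median gene. Chemosensory receptor genes, most of them not known to act in macrophages, serve as a guide to background chosen after the values were seen. Their 97.5th percentile was 5.38, 5.94, 6.09 and 5.53 in the same order, and a gene below it, member or not, cannot be sized. Macrophage markers were read in all 4 arrays: Adgre1, which encodes a macrophage surface antigen, read 7.77 to 8.53, Csf1r 8.46 to 9.02 and Cd68 9.22 to 10.20, and 9 or 10 of the 10 macrophage markers reached a level of 6 in each. Markers of other cells were present too and in places summed to more than those of macrophages. The summed log2 level was 13.57 for neutrophil against 12.24 for macrophage markers in WT Ly6C-hi. For endothelial markers it was 12.38 against 12.23 in WT Ly6C-low and 13.76 against 11.98 in KO Ly6C-low. These sums run over 18 neutrophil, 17 endothelial and 10 macrophage genes, so they do not compare amounts of RNA. The list medians were 8.38 against 8.44, 7.87 against 8.50 and 8.99 against 8.81 in the same comparisons. The sorted cells are therefore called by their label.

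**Figure D1:**
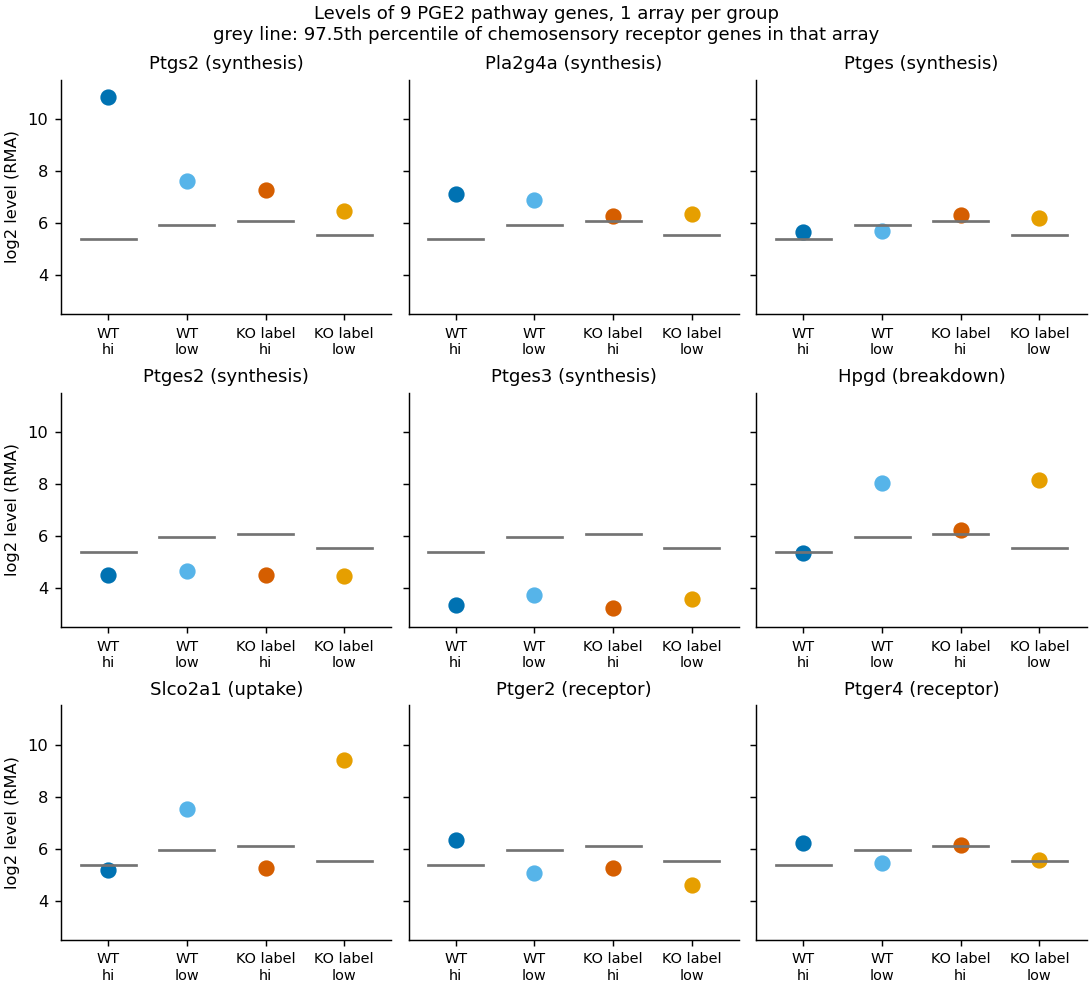
Log2 level of each of the 9 measured genes (y axis) in the 4 arrays (x axis), 1 point per array, with a grey line at the 97.5th percentile of chemosensory receptor genes in that array. Ptgs2 stands at 10.85 in WT Ly6C-hi, Slco2a1 at 9.40 in KO Ly6C-low, and Ptges2 and Ptges3 lie under the grey line in all 4 arrays.

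Among the synthesis genes, Ptgs2, the inducible cyclooxygenase gene, carried the widest spread. It read 10.85 and 7.61 in the Ly6C-hi and Ly6C-low arrays of WT and 7.26 and 6.47 in those labelled KO. WT Ly6C-hi stood far above the other 3 arrays, and within each fraction the array labelled KO was the lower. The Ly6C-hi minus Ly6C-low difference was 3.24 in WT, the 44th highest of 4762 genes, and 0.78 under the KO label. The KO minus WT difference was -3.60 in Ly6C-hi, the 7th lowest of 4410 genes, and -1.13 in Ly6C-low, the 19th lowest of 4444. These comparisons share arrays, so the high WT Ly6C-hi reading enters several of them.

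The effect of fraction and of genotype label on Ptgs2 was tested with limma over the 5306 genes, as an additive model of both. Ptgs2 was higher in Ly6C-hi by a mean of 2.01 over the genotype labels (SE 0.46, adjusted p = 0.000504). The difference was 3.24 for WT and 0.78, under 2-fold, for KO. The mean genotype label difference over the fractions was -2.36 (SE 0.46, adjusted p = 0.000807), from -3.60 for Ly6C-hi and -1.13 for Ly6C-low. Only the direction was shared, and both means include the high WT Ly6C-hi reading. The model takes the gap between such differences as noise. Its SE is pooled over genes, and the SE from the gene's own residual was 1.23. The first call was lost with no floor on level (adjusted p = 0.344) and with each gene's own variance (adjusted p = 0.84). The second was lost in those settings (adjusted p = 1 and 0.999) and when arrays were centred on the median gene (adjusted p = 0.675), with the difference itself at -2.21.

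Pla2g4a, the phospholipase gene that starts the pathway, read 7.11 and 6.88 in the Ly6C-hi and Ly6C-low arrays of WT and 6.29 and 6.34 in those labelled KO. Both arrays labelled KO lay below both WT arrays, and the fractions lay close together. The KO minus WT difference was -0.82 in Ly6C-hi and -0.54 in Ly6C-low, neither 2-fold. Relative to the median gene these were -0.32 and -0.74. In limma the genotype label difference was -0.68 (SE 0.52, adjusted p = 1) and the fraction difference 0.09 (SE 0.52, adjusted p = 0.987).

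Ptges, the gene the KO label refers to, read 5.65 and 5.69 in the Ly6C-hi and Ly6C-low arrays of WT and 6.32 and 6.20 in those labelled KO. The arrays labelled KO were the higher ones, which goes against the label, and 3 of the 4 readings, all but WT Ly6C-low, lay above the chemosensory percentile. The labels do not place the probes relative to the deletion, and probes outside it would check nothing. Every genotype difference given here therefore rests on the label alone. The KO minus WT difference of 0.68 in Ly6C-hi was 1.18 relative to the median gene and 0.85 with quantile normalisation. The 0.51 in Ly6C-low was 0.32 and 0.43 in the same settings. The fraction difference was -0.04 for WT and 0.12 for KO, and limma gave 0.59 for the label (SE 0.57, adjusted p = 1).

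The other synthase genes gave no readable signal. Ptges2, the membrane-associated synthase gene, read 4.51, 4.64, 4.49 and 4.46 in WT Ly6C-hi, WT Ly6C-low, KO Ly6C-hi and KO Ly6C-low. Ptges3, which encodes the cytosolic synthase also known as the co-chaperone p23, read 3.34, 3.73, 3.23 and 3.57. All 8 readings lay below the chemosensory percentile. Another 2 probe sets are annotated to Ptges3 together with a pseudogene and were not used, so this reading is not the whole of what the array holds for Ptges3.

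Slco2a1, the prostaglandin transporter gene, was read mainly in the Ly6C-low fraction. It read 5.17 and 7.53 in the Ly6C-hi and Ly6C-low arrays of WT and 5.24 and 9.40 in those labelled KO. Both Ly6C-hi arrays lay below the chemosensory percentile and both Ly6C-low arrays well above it, so the fraction differences and their ranks describe the deposited values and are not sized. The Ly6C-hi minus Ly6C-low difference was -2.36 in WT, the 69th lowest of 4762 genes, and -4.16 under the KO label, the 43rd lowest of 4541. Within Ly6C-low the array labelled KO was higher by 1.87 (1.68 relative to the median gene), the 40th highest of 4444 genes.

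Hpgd, the gene of the PGE2-inactivating dehydrogenase, was high in the same fraction. It read 5.34 and 8.04 in the Ly6C-hi and Ly6C-low arrays of WT and 6.21 and 8.16 in those labelled KO. The Ly6C-low arrays lay above both Ly6C-hi arrays and within 0.12 of each other. The WT Ly6C-hi reading lay just below the chemosensory percentile, so differences against it describe the deposited values and are not sized. The Ly6C-hi minus Ly6C-low difference was -2.69 in WT, the 43rd lowest of 4762 genes, and -1.94 under the KO label, the 309th lowest of 4541. Within Ly6C-hi the array labelled KO was higher by 0.87, which became 1.37 relative to the median gene and 1.01 with quantile normalisation.

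In limma the Ly6C-hi minus Ly6C-low difference was -3.26 for Slco2a1 (SE 0.51, adjusted p = 2.36e-08) and -2.32 for Hpgd (SE 0.51, adjusted p = 0.000242), with the same direction in both genotype labels. With no floor on level the adjusted p was 0.0571 and 0.0947, and with each gene's own variance 0.836 for both. Slco2a1 reached the floor only in Ly6C-low, the fraction where it is high, so the floor depends on the contrast tested. Its Ly6C-hi readings, and that of Hpgd in WT, lay below the chemosensory percentile, so neither limma fraction difference is sized. The genotype label difference was 0.97 for Slco2a1 (SE 0.51) and 0.49 for Hpgd (SE 0.51), with an adjusted p of 1 for both.

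The receptor genes were read close to background. Ptger2, which encodes EP2, read 6.33 and 5.06 in the Ly6C-hi and Ly6C-low arrays of WT and 5.24 and 4.59 in those labelled KO. Only the WT Ly6C-hi array exceeded the chemosensory percentile. As deposited, the Ly6C-hi minus Ly6C-low difference was 1.27 in WT and the KO minus WT difference in Ly6C-hi was -1.10, each against a reading below that percentile and so not sized. Relative to the median gene these were 0.96 and -0.59, neither 2-fold. Limma gave 0.96 for the fraction (SE 0.80, adjusted p = 0.723) and -0.78 for the label (SE 0.80, adjusted p = 1).

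Ptger4, which encodes EP4, read 6.20 and 5.43 in the Ly6C-hi and Ly6C-low arrays of WT and 6.14 and 5.55 in those labelled KO. Both Ly6C-hi arrays lay above both Ly6C-low arrays, and the genotype labels lay within 0.12 of each other in each fraction. The fraction difference was 0.77 in WT and 0.59 under the KO label, which became 0.46 and 0.97 relative to the median gene. Limma gave 0.68 for the fraction (SE 0.60, adjusted p = 0.758) and 0.03 for the label (SE 0.60, adjusted p = 1).

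**Figure D2:**
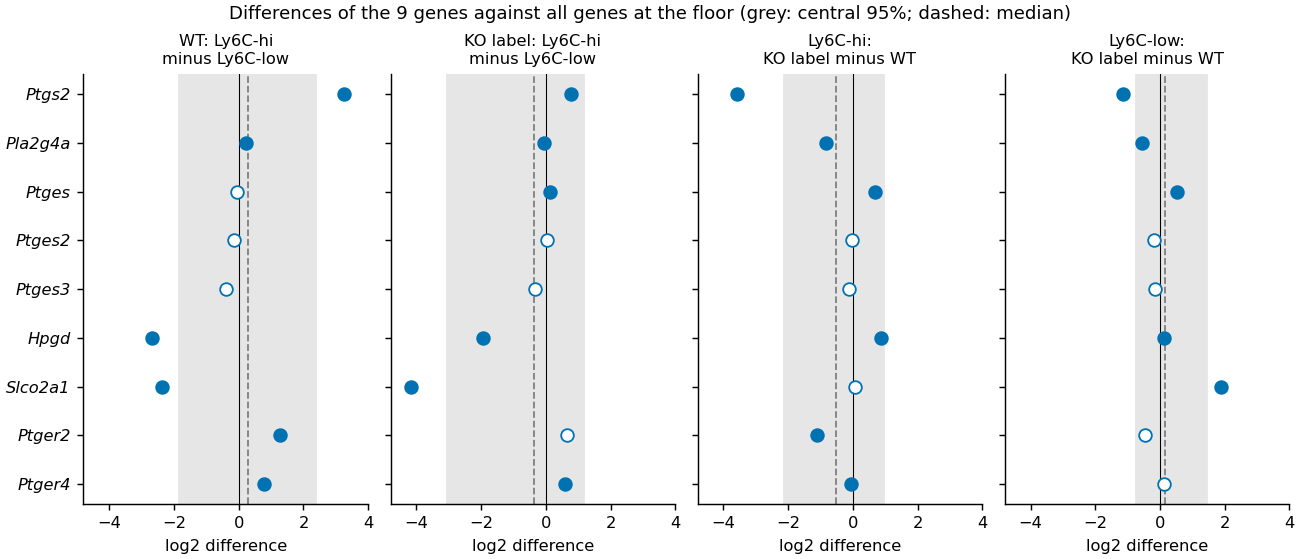
Log2 difference (x axis) of each of the 9 genes (rows) in the 4 comparisons (panels), with the central 95% of all genes at the floor in grey and their median dashed. Filled points have their brighter array at 6 or more and open points do not; Ptgs2 lies outside the grey band in 3 panels, above it in WT and below it in both KO minus WT panels.

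Counted as 2-fold or more with the brighter array at 6 or more, members were set against all genes in each comparison. For Ptger2, Slco2a1 in the fraction comparisons and Hpgd against WT Ly6C-hi, these counts include a dimmer reading below the chemosensory percentile. In WT, Ptgs2 and Ptger2 were higher in Ly6C-hi and Hpgd and Slco2a1 higher in Ly6C-low, of 6 members at the floor, beside 20.3% and 6.57% of 4762 genes. After centring, which subtracted 0.31 from this difference, Ptger2 dropped out and the shares were 13.3% and 10.7%. Under the KO label no member was higher in Ly6C-hi and the same Hpgd and Slco2a1 were higher in Ly6C-low, of 6, beside 4.47% and 20.7% of 4541 genes. Centring subtracted an offset of -0.38 from that difference, which raised it. This added Ptgs2 on the Ly6C-hi side (1.16), with shares of 10.9% and 12.7%.

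Within Ly6C-hi, no member was higher under the KO label, beside 2.34% of 4410 genes, and Ptgs2 and Ptger2 were higher in WT, of 6, beside 20.6%. Centring subtracted an offset of -0.50 from this difference, which raised it. That left Ptgs2 alone on the WT side and put Ptges and Hpgd on the KO side, with shares of 6.92% and 5.80%. With quantile normalisation Ptges stood at 0.85 and Hpgd at 1.01, so Ptges was not 2-fold apart. With lowess they stood at 1.20 and 1.68. Within Ly6C-low, Slco2a1 was higher under the KO label, of 5 members at the floor, beside 6.89% of 4444 genes, and Ptgs2 was higher in WT, beside 0.81%. Centring subtracted 0.19 from this difference and kept both, with shares of 4.68% and 1.98%. By limma, 3 of 7 members passed for the fraction beside 6.77% of 5306 genes, and 1 of 7, Ptgs2, for the genotype label beside 0.32%. Of the 3, Slco2a1 was at the floor only through the Ly6C-low arrays.

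The 7 members at the floor differed in how the fraction difference compared between the labels. The KO hi minus low difference less the WT one was -2.46 for Ptgs2, the 103rd lowest of 5306 genes. For Slco2a1 the deposited values gave -1.80, which is not sized because both Ly6C-hi readings lay below the chemosensory percentile. The median of the 5306 genes stood at -0.67, so the genes at the floor are shifted in this quantity as a set. Pla2g4a, read above that percentile in all 4 arrays as Ptgs2 was, stood at -0.28. The other 4, Hpgd (0.75), Ptges (0.16), Ptger4 (-0.18) and Ptger2 (-0.62), each rest on at least 1 reading below it. The design leaves no test of this quantity, since the model takes it as noise.

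**Figure D3:**
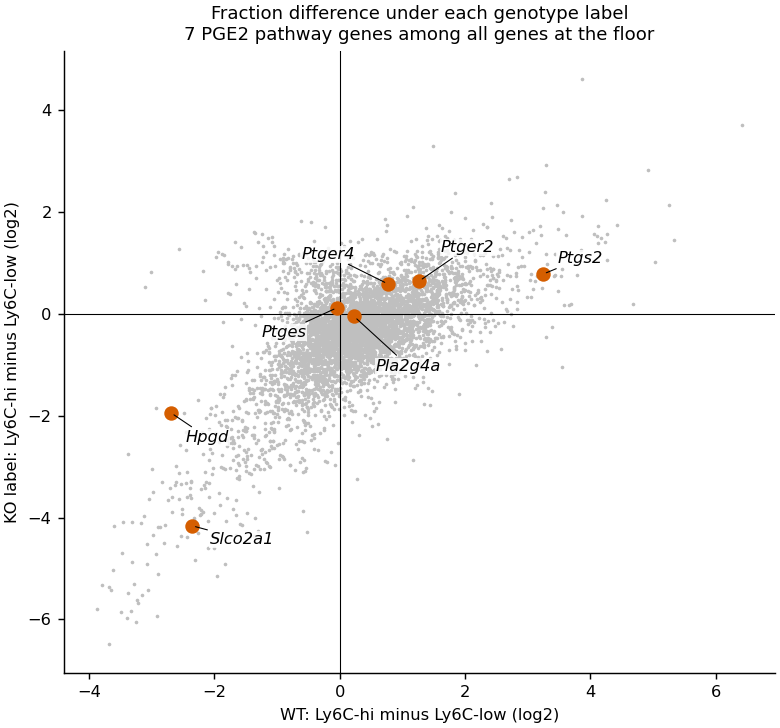
Ly6C-hi minus Ly6C-low log2 difference in WT (x axis) and under the KO label (y axis) for the 5306 genes at the floor (grey) and 7 members (orange). Hpgd and Slco2a1 lie at the lower left, Ptgs2 at the right at 3.24 and 0.78, and Ptges and Pla2g4a near the origin.

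Markers of other cell types moved with these genes. Sinusoidal endothelial markers were read in the Ly6C-low arrays: of 17 measured, 16 reached a level of 6 in WT Ly6C-low and 17 in KO Ly6C-low, against 1 in WT Ly6C-hi and 0 in KO Ly6C-hi. Their summed level on the log2 scale came to 9.24 and 12.38 in the Ly6C-hi and Ly6C-low arrays of WT and 8.72 and 13.76 in those labelled KO, so KO Ly6C-low was highest, as for Slco2a1. The defining markers Stab2 (10.61) and Clec4g (11.46) were high in KO Ly6C-low. The part of endothelial RNA in the Slco2a1 and Hpgd readings was not tested. In sorted bulk RNA, fewer cells of a type and less RNA per cell cannot be told apart.

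Kupffer cell markers, which define resident liver macrophages, were also higher in Ly6C-low. Of 12 measured, 3, 8, 1 and 4 reached a level of 6 in WT Ly6C-hi, WT Ly6C-low, KO Ly6C-hi and KO Ly6C-low, with summed levels of 9.12, 10.57, 8.42 and 10.83. The sums and the Ly6C-low counts include Cdh5 (8.35 in WT Ly6C-low, 9.86 in KO Ly6C-low), which endothelium also expresses. The order of the Ly6C-low sums therefore cannot be read as one of Kupffer cells. Clec4f read 6.54 in WT Ly6C-low and 5.91 in KO Ly6C-low, and Vsig4 read 7.15 and 5.85.

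Neutrophil markers moved with Ptgs2. Of 18 measured, 12 reached a level of 6 and 6 in the Ly6C-hi and Ly6C-low arrays of WT and 9 and 4 in those labelled KO, with summed levels of 13.57, 10.09, 11.56 and 9.49. WT Ly6C-hi was the highest array for both the neutrophil sum and Ptgs2, but KO Ly6C-hi exceeded WT Ly6C-low in the sum and not in Ptgs2. Of 18 markers, Ltf, Camp, Padi4, Mpo, Elane and Cebpe stayed below 6 in all arrays. Monocyte markers followed another order, with summed levels of 11.57, 10.79, 12.11 and 10.87, highest in KO Ly6C-hi, and the macrophage sums were 12.24, 12.23, 11.67 and 11.98. The part of neutrophil RNA in the Ptgs2 reading was not tested. Hepatocyte markers were read in every array, with 5, 9, 5 and 7 of 12 at 6 or more and sums of 11.66, 12.22, 11.12 and 12.02 in the same order.

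**Figure D4:**
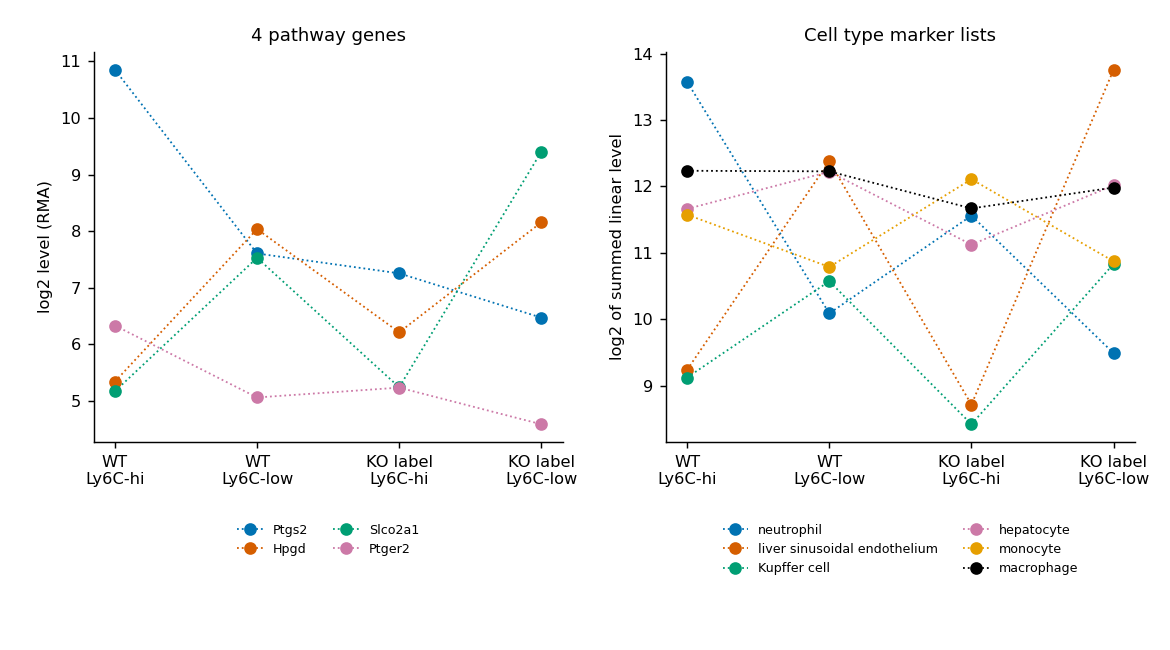
Left, log2 levels of Ptgs2, Hpgd, Slco2a1 and Ptger2 in the 4 arrays; right, log2 of the summed linear levels of 6 marker lists in the same arrays (dotted lines only join the points of an item). The endothelial sum and Slco2a1 are highest in KO Ly6C-low (13.76 and 9.40), and the neutrophil sum and Ptgs2 are highest in WT Ly6C-hi (13.57 and 10.85).

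The genes whose pattern over the 4 arrays was closest to a member's were found among 5004 genes by the root mean square distance of profiles centred on their own mean. Closest to Ptgs2 were Egln3 (distance 0.26), an oxygen-sensing hydroxylase gene, Cass4 (0.31) and Antxr2 (0.32), an anthrax toxin receptor gene. Slco2a1 had closer neighbours: Meis2 (0.07), a homeobox factor gene, Lifr (0.10), the leukaemia inhibitory factor receptor gene, and Oit3 (0.14), which is on the endothelial list. Hpgd was nearest to Pdlim1 (0.22), Csrp2 (0.23) and Tmem47 (0.24). Ptger2 was nearest to Btbd35f2 (0.04), of a multigene family and so uncertain, Fuca2 (0.05), a fucosidase gene, and Slc15a3 (0.07), a peptide transporter gene. With 4 arrays a short distance says only that the readings run in parallel. Ptger2 exceeded the chemosensory percentile in only 1 array, Slco2a1 in 2 and Hpgd in 3. Their matches therefore rest in part on readings that are not sized.

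The other genes of arachidonate supply were counted in the same way. In the list counts from here on, the dimmer reading of a gene may lie below the chemosensory percentile, and its difference is then not sized. Here that held for Lpcat2 and Mboat7 outside WT Ly6C-hi, and for Acsl5 and Mgll in KO Ly6C-hi. Of 21 listed genes of arachidonate release and re-esterification, 10 were at the floor in WT, and 3 exceeded 2-fold on the Ly6C-hi side: Lpcat2 (1.70), Pla2g7 (1.54), a platelet-activating factor hydrolase gene, and Mboat7 (1.53). The count was also 3 of 10 after centring, beside 20.3% of all genes as deposited and 13.3% centred. Within Ly6C-hi, 5 of 11 were that much lower under the KO label, among them Lpcat2 (-1.48), Acsl5 (-1.48), Mboat7 (-1.40) and Pla2g7 (-1.34), and 1, the secreted phospholipase gene Pla2g2d (1.10), was higher. The median was -0.79 beside -0.53 for all genes, of which 20.6% were that much lower and 2.34% that much higher. Relative to the median gene none of the 11 was 2-fold lower and 1 was higher, beside 6.92% and 5.80% of all genes. Under the KO label Mgll (-1.88) and Acsl5 (-1.03) were higher in Ly6C-low, 2 of 10 beside 20.7% of all genes. After centring 1 stood on each side, beside 10.9% on the Ly6C-hi side and 12.7% on the Ly6C-low side. Within Ly6C-low none of 9 was 2-fold apart, beside 6.89% of all genes higher and 0.81% lower under the KO label.

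The other prostanoid receptor genes that were measured lay below the chemosensory percentile, save for Tbxa2r in KO Ly6C-low. Of 7 listed, 5 were measured and 1, the thromboxane receptor gene Tbxa2r, reached a level of 6, at 6.16 in KO Ly6C-low. Ptger3, the EP3 gene, read 3.46 to 4.10. Ptger1 was not analysed here. Of 14 measured genes of PGE2 export, other transport and breakdown, 6 were at the floor in WT. Of these 1 was 2-fold higher in WT Ly6C-hi, Slco4a1, an organic anion transporter gene (7.45 against 4.63), beside 20.3% of all genes. After centring 2 stood on the Ly6C-low side, beside 10.7% of all genes. Within Ly6C-hi, 2 of 6 were lower under the KO label and none higher: Slco4a1 (-2.34) and Cbr2 (-1.43), a carbonyl reductase gene. That was 1 of 6 after centring, beside 20.6% of all genes as deposited and 6.92% centred. Under the KO label Cbr2 (-1.21) was the 1 of 5 on the Ly6C-low side, beside 20.7% of all genes, and none was after centring, beside 12.7%. Within Ly6C-low, Cbr2 (-1.11) was the 1 of 5 that was 2-fold apart, with or without centring. The share of all genes that much lower was 0.81% as deposited and 1.98% centred. Slco4a1 outside WT Ly6C-hi, and Cbr2 in KO Ly6C-hi, lay below the chemosensory percentile, so differences against those readings are not sized. Abcc4, the exporter of PGE2, read 5.10 to 5.81.

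Genes that carry or limit the EP2 and EP4 signal were counted next. Under the KO label, of 13 at the floor, 5 were at least 2-fold higher in KO Ly6C-low and none in KO Ly6C-hi, with Pde2a, a cyclic nucleotide phosphodiesterase gene (-3.06), the adenylyl cyclase gene Adcy4 (-2.66), the arrestin gene Arrb1 (-2.05) and the kinase subunit gene Prkacb (-1.28) the largest. Relative to the median gene the count was 3 of 13, and the shares of all genes were 20.7% as deposited and 12.7% centred. In WT 3 of 13 were higher in Ly6C-hi, Crtc2 (1.47), Akap13 (1.10) and Arrb2 (1.04), beside 20.3% of all genes. After centring 1 stood on each side, beside 13.3% on the Ly6C-hi side and 10.7% on the other. Within Ly6C-low, Adcy4 (1.64), Arrb1 (1.08) and Pde2a (1.05) were higher under the KO label, 3 of 12 (1 after centring), in the array where endothelial markers were highest. The share of all genes was 6.89% as deposited and 4.68% centred. Below the chemosensory percentile lay Adcy4, Crtc2 and Akap13 in WT Ly6C-low and Adcy4, Pde2a and Prkacb in KO Ly6C-hi. Differences against those readings are not sized. Within Ly6C-hi 3 of 12 were lower, Arrb2 (-1.55), Arrb1 (-1.45) and Pde2a (-1.29), beside 20.6% of all genes. After centring 1 of 12 was lower, beside 6.92%.

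Cyclic AMP and CREB target genes ran with Ptgs2 in WT. Of 19 at the floor, 14 exceeded 2-fold on the Ly6C-hi side and none on the other, with a median of 1.70 beside 0.30 for all genes. Hdc, the histidine decarboxylase gene (3.69), the chemokine gene Cxcl3 (3.39), the nuclear receptor gene Nr4a3 (2.72) and the AP-1 gene Fosl2 (2.55) were the largest. Relative to the median gene 13 were on the Ly6C-hi side and 1 on the other. The share of all genes on the Ly6C-hi side was 20.3% as deposited and 13.3% centred. Neutrophil markers moved the same way, with 12 of 12 at the floor 2-fold higher in WT Ly6C-hi and a median of 3.59, and their part in these counts was not tested. Nr4a3 in WT Ly6C-low lay below the chemosensory percentile, so its WT difference is not sized. Under the KO label 2 of 17 were higher in Ly6C-hi, Nr4a1 (1.47) and Atf3 (1.05), and Arg1 (-1.21) was higher in Ly6C-low. After centring these counts were 8 and 0 of 17. The shares of all genes were 4.47% and 20.7% as deposited and 10.9% and 12.7% centred.

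Within Ly6C-hi, 11 of 19 of these targets were lower by 2-fold or more with the KO label and none higher, with a median of -1.19 beside -0.53 for all genes. Cxcl3 (-4.18), Hdc (-3.19), the angiogenic factor gene Vegfa (-2.40) and Nr4a3 (-1.95) were the largest, and 5 were 2-fold lower after centring. The share of all genes was 20.6% as deposited and 6.92% centred, and 11 of 12 neutrophil markers were also that much lower. Cxcl3 and Nr4a3 in KO Ly6C-hi lay below the chemosensory percentile, so their differences here are not sized. Within Ly6C-low only Thbs1 (-1.06) of 17 was 2-fold apart, beside 0.81% of all genes that much lower under the KO label and 6.89% higher. Many of these genes also answer to other inflammatory signals, and the list was drawn up with results of these arrays known, so it is no independent evidence of direction.

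Regulators of Ptgs2 transcription and mRNA were highest in WT Ly6C-hi, as Ptgs2 was, but lowest in WT Ly6C-low, where Ptgs2 was not: their median levels were 7.68, 6.67, 7.10 and 7.04 in WT Ly6C-hi, WT Ly6C-low, KO Ly6C-hi and KO Ly6C-low. Of 17 at the floor, in WT 9 exceeded 2-fold towards Ly6C-hi and none towards Ly6C-low (median 1.22), led by the cytokine genes Il1b (2.78) and Tnf (2.10), the kinase gene Mapkapk2 (1.94) and Egr1 (1.63). Within Ly6C-hi 7 of 17 were lower under the KO label and none higher (median -0.84), with Il1b (-2.17), the endotoxin receptor gene Tlr4 (-1.76), Tnf (-1.72) and Cebpd (-1.35) the largest. After centring these counts were 7 and 3, and the shares of all genes were 20.3% and 20.6% as deposited and 13.3% and 6.92% centred. Under the KO label Il1b (1.60) was higher in Ly6C-hi, and Il1r1 (-2.14) and Cebpd (-1.51) were higher in Ly6C-low, of 16 (after centring 2 on each side). The shares of all genes were 4.47% and 20.7% as deposited and 10.9% and 12.7% centred. Within Ly6C-low Cebpd (1.62), Il1r1 (1.31) and Jun (1.04) were higher under the KO label, 3 of 16, and none was 2-fold lower. That was beside 6.89% and 0.81% of all genes. After centring the counts were 2 and 1, beside 4.68% and 1.98%. Below the chemosensory percentile lay Tlr4 in KO Ly6C-hi, and Cebpd and Il1r1 in both KO Ly6C-hi and WT Ly6C-low. Differences against those readings are not sized.

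**Figure D5:**
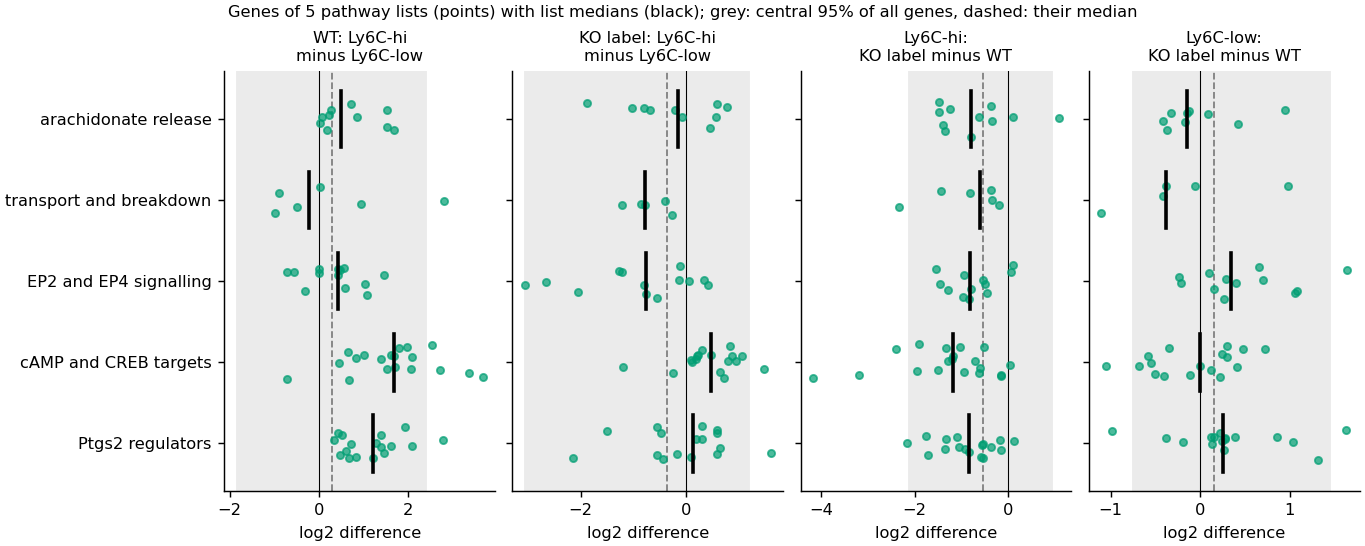
Log2 differences (x axis) of the genes of 5 pathway lists (rows, 1 green point per gene at the floor) in the 4 comparisons (panels), with list medians in black, the central 95% of all genes in grey and their median dashed. The black bar of cyclic AMP and CREB targets stands at 1.70 in WT, right of the dashed line at 0.30, and at -1.19 in Ly6C-hi, left of the dashed line at -0.53.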

How the data were processed

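Gene expression was measured on 4 Mouse Gene 2.0 ST arrays from 5 ng of total RNA each. The authors deposited log2 values made by RMA with gene-level summaries, per the labels; no version or annotation build was found in the labels. Probe sets with 1 gene symbol were used (23521 of 41345; 1814 had several and 16010 had none listed), named through RefSeq (23328 matched by Entrez ID), with the highest 4-array mean kept per gene.

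Differences between arrays have no test. Fraction and label were fitted together in limma 3.58.1 (R 4.3.3) over genes reaching 6 on the log2 scale in any array. The model was additive, with an eBayes trend and a threshold of 0.05 on the Benjamini-Hochberg adjusted p. Its code was run on simulated data with even noise and no genotype by fraction difference, which does not check it on these arrays. The model leaves 1 residual degree of freedom. Its prior degrees of freedom were estimated as infinite, so level, and not a gene's residual, sets the gene's SE. For Ptgs2 that SE was 0.46, against 1.23 from its own residual. The p-values thus set a gene's difference against residuals pooled over genes of like level in these arrays. Nothing says how many animals stand behind an array, so they do not measure variation between animals. Alternatives were centring, quantile normalisation, lowess, other floors, means of probe sets and other variance priors. Other steps used Python 3.11.15, pandas 2.3.3, statsmodels 0.14.6 and matplotlib 3.10.9. All 10 members are named, with up to 4 genes of each list by size and the 3 nearest patterns of each member spanning at least 1 log2 unit. The members and lists were chosen with earlier results of these data known.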

Additional observations from a re-analysis of the deposited data

Results flagged for a closer look

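A few differences had opposite signs in the groups being set side by side, and in each case the difference between the groups was not tested. The Ly6C-hi minus Ly6C-low difference of Pla2g4a was 0.23 in WT and -0.050 in KO, while that of Ptges was -0.039 and 0.12. The KO minus WT difference of Ptger4 was -0.063 in Ly6C-hi and 0.12 in Ly6C-low. All 6 values are under 2-fold.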

How the results depend on the processing

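Slco2a1 and Hpgd on the Ly6C-low side of both fraction comparisons, and Ptgs2 on the WT side of both genotype comparisons, kept their direction and stayed at 2-fold or more under centring, quantile normalisation, lowess and means of probe sets. The count of members 2-fold apart moved by over 1.5 times in 2 settings: with lowess the KO label fraction comparison had 4 members, and with a floor of 7 the Ly6C-hi genotype comparison had 1. Each member has a single probe set, so the choice among probe sets changes none of them. In limma the fraction effect called 359 genes, against 573 with quantile normalisation, 235 with a floor of 7, 74 with no floor and 0 with each gene's own variance (272 at an unadjusted p under 0.05). Of members it called 3, and 0 in the last 2 settings. The genotype label effect called 17 genes, against 10 with quantile normalisation, 6 with no trend and 0 with centring, no floor or own variance (296, 486 and 137 at an unadjusted p under 0.05). Of members it called 1, and 0 in those 3 settings. With no floor 22180 genes enter the adjustment, and own variance rests on 1 degree of freedom. Leaving out an array leaves no residual degrees of freedom, so it was not run. Signal near background limits Ptges, Ptger2, Ptger4, Ptges2 and Ptges3.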
